A study of Mus musculus with 18 samples.

Results

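The genes that encode the collagen chains of the mouse were followed across RNA-seq and ATAC-seq libraries of small cell lung cancer cells. The 43 genes were taken by name, with earlier results of these data known. They were grouped as 11 fibrillar, 6 basement membrane, 5 beaded and 21 other collagens. They are 43 of the 46078 genes of the RNA-seq table. Their start-site peaks are the regions of open chromatin whose middle lies within 1000 bp of an annotated transcript start, which are 58 of 111664 peaks and belong to 35 of the 43 genes.

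Collagens are secreted proteins in which 3 chains wind into a triple helix. Fibrillar collagens form the cable-like fibrils of connective tissue, and type I, built from the products of Col1a1 and Col1a2, is the main one in most organs. Type IV collagens form the sheet under epithelia and vessels, type VI collagens form beaded filaments around cells, and fibril-associated collagens (FACITs) decorate the surface of fibrils. In the lung, fibroblasts and other mesenchymal cells make most of the fibrillar collagen, while neuroendocrine cells, from which small cell lung cancer arises, make little.

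Tumors came from 3 genotypes, with 3 libraries from independent animals per genotype and assay. TKO mice carried floxed alleles of Rb1, Trp53 and a retinoblastoma family gene that the labels name Rbl1 and the methods for tumor induction name Rbl2. TKO;Carm1KO mice carried floxed Carm1 in addition (CARM1 knockout), and CARM1 is a methyltransferase that modifies arginines. TKO;NfibR388K mice carried a germline change of the arginine of the transcription factor NFIB that CARM1 methylates to a lysine (NFIB mutant). All groups shared the TKO alleles and received Cre by an adenovirus in the trachea at 8 weeks of age, and tumors were collected 28 weeks later. The promoter of this virus is not given in the sources used here, so the cell types that Cre reached are not defined. By the methods, cells were sorted for a tdTomato reporter that Cre switches on, whereas the text on these experiments speaks of tumor biopsies and the ATAC-seq methods also of cancer cell lines.

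RNA-seq libraries held 15848866 to 20915057 counts on genes, and ATAC-seq libraries 26917178 to 47653979 counts on peaks. Levels are given as CPM, the count scaled to the size of its library, always in the order of replicates 1, 2 and 3, and 3 counts corresponded to 0.143 to 0.189 CPM for genes. Carm1 RNA did not check the labels, since counts of whole genes do not resolve the removed exons. It stood at 97.7, 103 and 44.5 CPM in TKO and at 63.4, 79.1 and 50.8 CPM in CARM1 knockout libraries. Neuroendocrine markers went against the labelled cell type in part of the libraries. The summed level of 10 such genes was 1628 to 3924 CPM in TKO and 33.5 to 51.3 CPM in NFIB mutants, and with CARM1 knockout it was 59.2, 189 and 1806 CPM.

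Collagen RNA was low in TKO tumors and abundant in both mutants. All 43 genes together took 0.0442, 0.0378 and 0.0301% of the gene counts in TKO libraries. They took 2.08, 1.92 and 3.04% in CARM1 knockout and 1.83, 1.10 and 1.74% in NFIB mutant libraries, so that every mutant library lay above every TKO library. Most of the difference came from fibrillar chains, which made up 9.24 to 35.6% of the collagen counts in TKO and 60.4 to 89.7% in the mutants. Basement membrane chains went the other way as a share of collagen counts, from 33.8 to 55.7% in TKO to 1.19 to 9.53% in the mutants, although their share of all gene counts was higher in every mutant library.

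**Figure D1:**
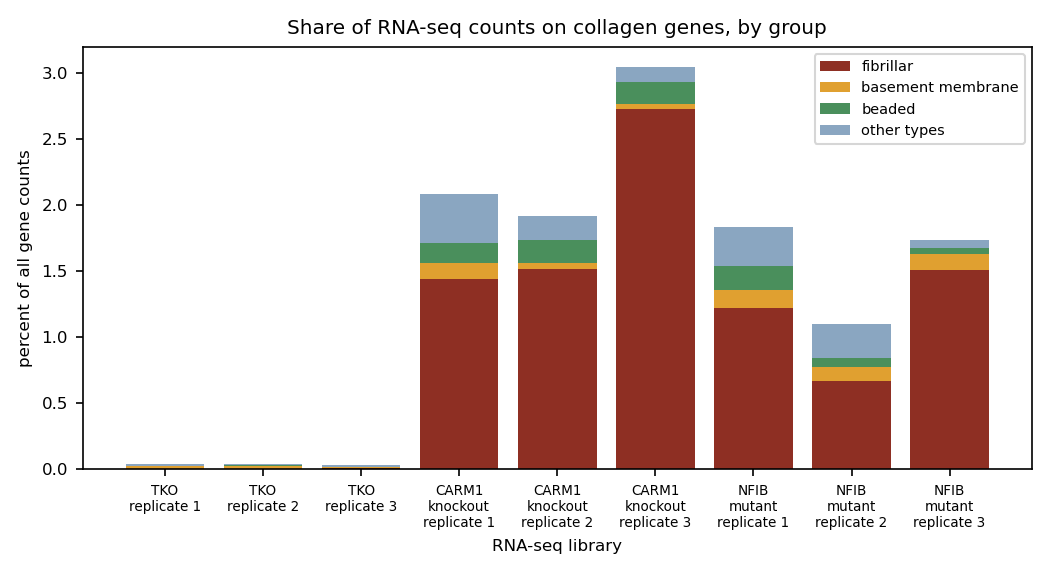
Bars give the percent of all RNA-seq gene counts that fell on collagen genes in each of the 9 libraries, divided by collagen group. The TKO bars reach at most 0.0442% and the mutant bars lie between 1.10 and 3.04%, mostly fibrillar.

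Genotypes were compared with edgeR's quasi-likelihood test and Benjamini-Hochberg adjustment over 15514 genes, and a call required an adjusted p below 0.1 together with a log2 fold change of 0.8 or more in size. Of the 43 collagen genes, 33 had enough counts in 3 or more libraries to be tested. A gene that reaches this level in 1 genotype alone is tested too, so these 33 are not a neutral draw from the family. Against TKO, 19 collagen genes were higher and 4 lower in CARM1 knockout tumors, where 20.5% of all genes tested were called higher and 18.3% lower. In NFIB mutants 20 were higher and 4 lower, where 22.3 and 23.5% of all genes were called. The median log2 fold changes of those tested were 3.06 (CARM1 knockout) and 3.54 (NFIB mutants), beside -0.03 and -0.05 over all genes tested. Of the 11 fibrillar genes 8 were higher and 1 lower in CARM1 knockout and 7 higher and 1 lower in NFIB mutants. Of the 6 basement membrane genes 3 were higher and 1 lower, and then 4 higher and 0 lower. The 3 beaded genes that were tested were higher in both, and of the 21 genes of other types 5 were higher and 2 lower, and then 6 and 3.

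Separation of the libraries gave a similar picture. Every CARM1 knockout library exceeded every TKO library for 20 of the 33 genes and fell below for 4, where 27.3 and 27.5% of all genes did so. For NFIB mutants the numbers were 23 above and 5 below, where 27.2 and 30.5% of all genes did so. The comparisons share their TKO libraries and are therefore not independent. The genes called higher in both mutants were 17, where 17.9% of all genes tested were, and those called lower in both were Col11a2 and Col9a3, where 15.4% of all were. No collagen gene was called in opposite directions, where 0.0387% of all were. An exact permutation test of 3 libraries against 3 has 10 splits and cannot give a p under 0.1 for a single gene.

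Markers of some other cells moved with these values, with exceptions within the lists. The summed level of 10 fibroblast genes that are not collagens was 119 to 341 CPM in TKO, and it reached 4723 to 9822 CPM with CARM1 knockout and 5482 to 10076 CPM with the NFIB change. Of these genes Twist2 had at most 3 counts in every TKO library, and none was at that limit in every library of a mutant. Lum had 0.0608, 24.2 and 0.127 CPM in NFIB mutants and was not called there (adjusted p = 0.131). In each mutant 9 of the 10 were called higher, where 20.5% (CARM1 knockout) and 22.3% (NFIB mutants) of all genes tested were. Smooth muscle and pericyte genes summed to 6.78 to 11.4, 521 to 2001 and 138 to 578 CPM in the same order. Acta2 held most of this sum in CARM1 knockout, at 762, 331 and 1537 CPM. Of these 7 genes 5 were called higher in CARM1 knockout and 4 in NFIB mutants, where 20.5 and 22.3% of all were. Rgs5 had log2 fold changes of -1.996 and -0.702 and Myh11 had -0.766 in NFIB mutants, none of them called. Leukocyte genes summed to 1.29 to 48.6, 172 to 2722 and 13.3 to 442 CPM, with Cd3e at 0 throughout. Of the 6 leukocyte genes tested, 6 were called higher in CARM1 knockout and 1 in NFIB mutants. Endothelial genes stayed between 0.486 and 17.4 CPM in all libraries, with Emcn and Cldn5 at 0. CARM1 knockout replicate 3 had the largest share of collagen counts. Among the mutants it also had the most neuroendocrine RNA (1806 CPM, of which Calca held 833 CPM). The same library had the most smooth muscle and pericyte (2001 CPM) and leukocyte RNA (2722 CPM) of the mutants, and the least summed fibroblast RNA (4723 CPM). In bulk cells, more cells of a type and more RNA per cell cannot be told apart, and the part of these cell types in the collagen values was not tested.

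Among fibrillar chains, Col1a1, Col1a2 and Col3a1 had the largest rises. Col1a1 (ENSMUSG00000001506, chr11:94936224-94953042 of GRCm38, plus strand) encodes the main chain of type I collagen. Its level was 0.288, 3.85 and 0.354 CPM in TKO, 6752, 6204 and 10055 CPM in CARM1 knockout and 3949, 2372 and 7796 CPM in NFIB mutant libraries. All mutant libraries lay more than 3 orders of magnitude above the TKO libraries 1 and 3, and TKO replicate 2 was the highest of its group. The log2 fold change was 12.31 (standard error 1.40, adjusted p = 0.00116) in CARM1 knockout and 11.61 (1.37, adjusted p = 0.00103) in NFIB mutants.

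Col1a2 (chr6:4504814-4541544, plus strand), the partner chain of type I, had 0, 5.03 and 0.354 CPM in TKO, 4273, 3278 and 8270 CPM in CARM1 knockout and 3025, 2589 and 4603 CPM in NFIB mutant libraries. Its log2 fold change was 11.51 (standard error 1.76, adjusted p = 0.00324) and 10.88 (1.72, adjusted p = 0.00279) in the same order. Col3a1 (chr1:45311538-45349706, plus strand), which forms type III collagen of elastic tissues, had 0, 3.98 and 0.709 CPM, then 2775, 3707 and 6655 CPM, and then 3866, 1200 and 2907 CPM. It rose by 11.44 (standard error 1.63, adjusted p = 0.00256) and 10.72 (1.59, adjusted p = 0.0022) on the log2 scale. For all 3 genes TKO replicate 2 was the highest TKO library, CARM1 knockout replicate 3 the highest CARM1 knockout library, and the groups did not overlap.

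The chromatin at these starts opened as well. At the Col3a1 start a peak (chr1:45311014-45311972) had 0.128, 0.0618 and 0.211 CPM in TKO, 6.30, 5.49 and 6.24 CPM in CARM1 knockout and 5.53, 4.21 and 5.46 CPM in NFIB mutant libraries. This was the largest rise among the collagen start-site peaks, with log2 fold changes of 5.50 (standard error 0.52, adjusted p = 3.38e-05) and 5.26 (0.51, adjusted p = 3.49e-05). The Col1a2 peak with the most reads (chr6:4504458-4507989) went from 2.77, 3.18 and 1.65 CPM to 35.4, 25.3 and 31.3 CPM in CARM1 knockout and 27.8, 28.9 and 32.2 CPM in NFIB mutants. Over the Col1a1 start the peak (chr11:94932748-94938598) held 7.14, 6.09 and 9.76 CPM in TKO, 56.7, 61.8 and 68.4 CPM in CARM1 knockout and 51.3, 59.9 and 66.2 CPM in NFIB mutants. For these 3 peaks every mutant library exceeded every TKO library, and the mutant libraries within a peak differed far less than the RNA did.

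The bases before the Col3a1 start, with the largest opening, and before the Col1a2 start are shown because they differ in composition. They come from the RefSeq promoter table of GRCm38.p6, which held 34 of the 43 genes and none for Col1a1, Col2a1, Col5a2, Col4a3, Col9a3, Col12a1, Col14a1, Col22a1 and Col26a1. Annotated exons of the gene itself were left out. Capitals mark matches on either strand to the TATA box (TATAAA), the CCAAT box, the GC box (GGGCGG), the AP-1 motif (TGANTCA) and the core element of NFI proteins (TTGGC), and matches to CCAAT and the NFI element can share letters. The Col3a1 stretch is chr1:45311288-45311537 and that of Col1a2 is chr6:4505370-4505492, both on the plus strand.
Col3a1: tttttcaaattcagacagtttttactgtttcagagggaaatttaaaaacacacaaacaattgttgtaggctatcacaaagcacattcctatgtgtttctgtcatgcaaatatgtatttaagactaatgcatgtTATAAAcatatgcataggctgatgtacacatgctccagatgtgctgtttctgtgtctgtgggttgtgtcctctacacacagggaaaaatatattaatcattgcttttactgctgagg
Col1a2: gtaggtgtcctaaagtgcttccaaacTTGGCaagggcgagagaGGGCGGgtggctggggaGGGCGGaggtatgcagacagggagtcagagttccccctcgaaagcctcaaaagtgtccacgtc
The 250 bases before the Col3a1 start held no CG dinucleotide and 35.2% G or C, while those before the Col1a2 start held 11 and 62.0%. The sequence shown for Col1a2 is the part of its window outside annotated exons.

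Types V and XI collagens are minor chains that sit inside type I and II fibrils and set their diameter. Col5a1 had 17.1, 3.41 and 2.04 CPM in TKO, 553, 1428 and 693 CPM in CARM1 knockout and 792, 487 and 441 CPM in NFIB mutants (log2 fold changes 6.89 and 6.25, adjusted p = 0.0025 and 0.00236). Col5a2 had 0, 2.23 and 0.133 CPM, 1081, 1097 and 1485 CPM and 1106, 669 and 1030 CPM (10.57 and 10.19, adjusted p = 0.00215 and 0.00177). Both genes were far above TKO in every mutant library. The Col5a2 start-site peak rose from 0.829, 0.309 and 0.761 CPM to 14.2, 8.72 and 12.5 CPM in CARM1 knockout and 8.85, 11.1 and 11.4 CPM in NFIB mutants, and Col5a1 had no start-site peak. Col5a3, another type V chain, rose less, from 0.961, 3.59 and 3.06 CPM to 21.4, 65.0 and 39.3 CPM and to 51.6, 31.4 and 156 CPM (4.04 and 4.97, adjusted p = 0.00843 and 0.0036).

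Type XI chains split. Col11a1 rose from 2.40, 1.01 and 1.06 CPM in TKO to 20.7, 680 and 121 CPM in CARM1 knockout and 8.69, 28 and 21 CPM in NFIB mutants (log2 fold changes 7.52 and 3.69, adjusted p = 0.00645 and 0.0378). CARM1 knockout replicate 2 stood far above the others, and the mutant libraries spanned a 78.3-fold range. Without TKO replicate 2 the NFIB mutant call was lost (adjusted p = 0.109). Col11a2, which pairs with Col11a1 in cartilage fibrils, fell instead. It had 10.2, 11.7 and 3.90 CPM in TKO, 0.881, 1.46 and 0.787 CPM in CARM1 knockout and 2.61, 0.247 and 1.08 CPM in NFIB mutants (log2 fold changes -3.04 and -2.71, adjusted p = 0.0296 and 0.0356), and the NFIB mutant call was lost without NFIB mutant replicate 3 (adjusted p = 0.103). Its start-site peak fell too, from 9.69, 15.3 and 12.7 CPM to 6.33, 7.14 and 5.71 CPM and to 7.17, 7.05 and 8.63 CPM (-0.97 and -0.72, adjusted p = 0.0137 and 0.047). In NFIB mutants the fall of the peak was not called without TKO replicate 2, NFIB mutant replicate 1 or NFIB mutant replicate 2 (adjusted p = 0.163, 0.116 and 0.112) or with only peaks of at least 10 counts in every library (0.12), and with scaling by total counts it was called in neither mutant (-0.39 and -0.14).

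The values of the developmental fibrillar collagens Col24a1 and Col27a1 depended on single libraries. Col24a1 stood at 77.4 CPM in TKO replicate 3 and at 0.144 and 0.306 CPM in the other TKO libraries, with 18.0, 2.51 and 3.88 CPM in CARM1 knockout and 14.2, 11.3 and 0 CPM in NFIB mutants. The groups overlapped and the gene was not called, and its log2 fold change of -1.68 in CARM1 knockout and -1.61 in NFIB mutants became 5.16 and 5.22 without TKO replicate 3, still not called. Col27a1 was called higher in CARM1 knockout (2.72, standard error 1.04, adjusted p = 0.0753) and had 2.07 (adjusted p = 0.132) in NFIB mutants. The call was lost without TKO replicate 2 or 3 (adjusted p = 0.156 and 0.130), without CARM1 knockout replicate 1 or 2 (0.135 and 0.169) and with only the genotypes compared in the fit (0.123). In NFIB mutants the gene was called without TKO replicate 1 (4.37, adjusted p = 0.00668), by DESeq2 (adjusted p = 0.0688) and with the replicate number as a block (0.0695). The difference between the mutants was 0.66 and was not called (adjusted p = 0.899). Col2a1, the chain of cartilage type II collagen, was not tested and had at most 81 counts in any library, in CARM1 knockout replicate 2.

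**Figure D2:**
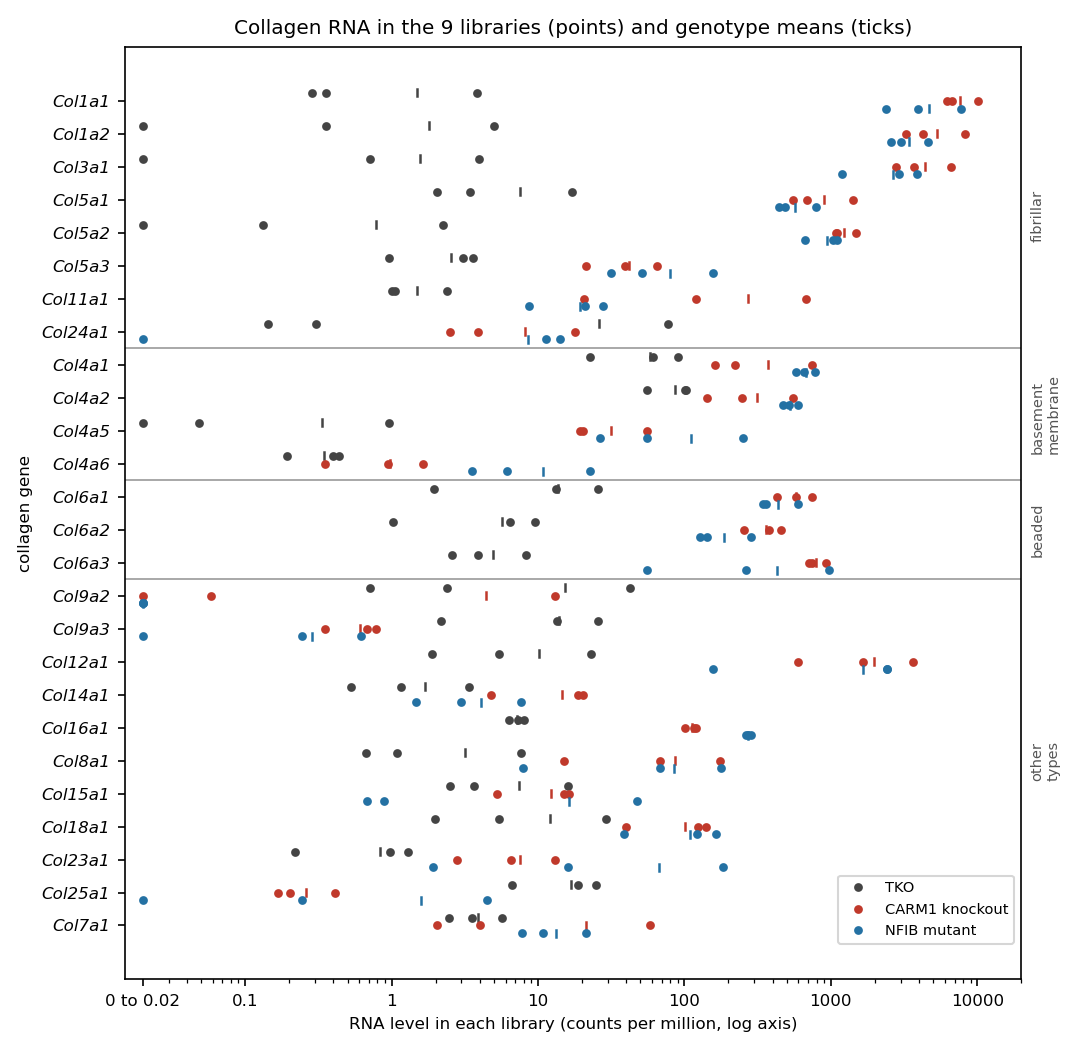
Points are the RNA levels of the 26 collagen genes with a mean of at least 10 CPM in a genotype in each of the 9 libraries, in CPM on a log axis with values from 0 to 0.02 drawn at the left edge, and ticks are genotype means. The mutant points of the beaded chains and of Col1a1, Col1a2 and Col3a1 lie to the right of TKO, those of Col9a3 and Col25a1 lie to the left, and those of Col24a1 and Col15a1 overlap with TKO.

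Of the basement membrane collagens, Col4a2 and Col4a1 had the highest mean levels per length of all collagen genes in TKO, at 13.1 and 7.76 CPM per kb of exon. Single TKO libraries departed from this order, with Col24a1 at 10.2 against 8.44 CPM per kb for Col4a2 in replicate 3, and Col9a2 above Col4a1 in replicate 1. Col4a1 and Col4a2 encode the chains of the common type IV trimer and lie head to head, with RefSeq starts 21 bases apart on opposite strands. Col4a1 (chr8:11198423-11312826, minus strand) had 60.8, 90.4 and 22.6 CPM in TKO, 738, 222 and 163 CPM in CARM1 knockout and 786, 658 and 582 CPM in NFIB mutants. Col4a2 (chr8:11312805-11449287, plus strand) had 103, 100 and 55.8 CPM, 549, 248 and 144 CPM and 592, 473 and 515 CPM. All mutant libraries exceeded all TKO libraries for both. Col4a1 rose by 2.69 (standard error 0.69, adjusted p = 0.0204) and 3.54 (0.71, adjusted p = 0.007), and Col4a2 by 1.86 (0.48, adjusted p = 0.0214) and 2.61 (0.49, adjusted p = 0.00555), on the log2 scale.

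The peak over their common start (chr8:11311588-11314531) did not follow the RNA. It held 37.6, 40.3 and 27.4 CPM in TKO, 24.1, 18.9 and 14.2 CPM in CARM1 knockout and 25.7, 28.9 and 20.2 CPM in NFIB mutants. It was lower in every CARM1 knockout library than in any TKO library (log2 fold change -0.88, standard error 0.24, adjusted p = 0.0081) and overlapped in NFIB mutants (-0.49, adjusted p = 0.0853), where it missed the size limit of 0.5. Scaling changed this value. With total counts the differences were -0.29 and 0.09 and neither was called, and with RLE scaling the NFIB mutant value was -0.65 and called (adjusted p = 0.0359). It was also called in NFIB mutants by DESeq2 (adjusted p = 0.0579) and without TKO replicate 3 or NFIB mutant replicate 2 (0.0341 and 0.0715). Col4a1 and Col4a2 were the only genes of 29 with a test and a peak whose RNA was called higher and whose strongest peak was called lower in CARM1 knockout tumors. Stretches of 30 bases with closely spaced capitals are shown for this pair, each read in the direction of its gene. They are chr8:11312773-11312802 before the Col4a2 start and chr8:11312942-11312971 before the Col4a1 start. Each lies wholly within annotated exons of the other gene of the pair.
Col4a2: CCAATttgTTGGCgctgccccctcccctcg
Col4a1: ATTGGCgaGCCAAggggctcgtggaatcgg
In the Col4a1 stretch the capitals are TTGGC and its reverse complement, with CCAAT on the opposite strand overlapping the first.

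Col4a3 and Col4a4 form a second head-to-head pair, whose products make the type IV trimer of glomerular and alveolar basement membranes. Their common peak (chr1:82586111-82587559) fell from 5.90, 8.19 and 24.3 CPM in TKO to 0.827, 2.05 and 1.16 CPM in CARM1 knockout and 4.72, 2.65 and 1.92 CPM in NFIB mutants (log2 fold changes -3.24 and -2.05, adjusted p = 0.00156 and 0.0119). Their RNA was near the detection limit, at most 3.46 CPM for Col4a3 and 8.69 CPM for Col4a4. Col4a3 had no more than 3 counts in each CARM1 knockout library and was called at least 7.51-fold lower there, while Col4a4 was not called. That call was lost without TKO replicate 3 (log2 fold change -1.34, adjusted p = 0.231) or without any 1 of the CARM1 knockout libraries (adjusted p = 0.119 to 0.135) and with the replicate number as a block (-2.88, adjusted p = 0.134), and without TKO replicate 3 the bound was 1.79-fold, so the RNA of this pair gives less than its peak.

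The X-linked pair Col4a5 and Col4a6 rose with differing strength. Col4a5, the third partner of the Col4a3 trimer, went from 0.048, 0.962 and 0 CPM in TKO to 19.3, 20.4 and 55.4 CPM in CARM1 knockout and 55.3, 26.6 and 249 CPM in NFIB mutants (6.51 and 8.31, adjusted p = 0.0141 and 0.00591). Its start-site peak rose by 2.20 and 2.36 on the log2 scale (adjusted p = 0.00163 and 0.00105). Col4a6, a chain of smooth muscle and skin basement membranes, had 0.192, 0.437 and 0.399 CPM in TKO, 0.949, 0.350 and 1.63 CPM in CARM1 knockout and 22.6, 6.10 and 3.56 CPM in NFIB mutants. It was called in NFIB mutants (4.94, standard error 0.97, adjusted p = 0.00617), where all 3 libraries exceeded those of the other genotypes, and not in CARM1 knockout (1.49, adjusted p = 0.203). The difference between the mutants of -3.45 was not called (adjusted p = 0.487).

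The beaded chains that assemble into type VI collagen rose together. Col6a1 went from 13.4, 25.7 and 1.95 CPM in TKO to 428, 746 and 574 CPM in CARM1 knockout and 594, 363 and 341 CPM in NFIB mutants. Col6a2 went from 6.44, 9.49 and 1.02 CPM to 256, 455 and 379 CPM and to 286, 142 and 127 CPM. Col6a3, the long chain of the trimer, went from 3.89, 8.22 and 2.57 CPM to 929, 712 and 738 CPM and to 965, 265 and 55.4 CPM. No mutant library overlapped TKO for these genes, and NFIB mutant replicate 3 was the lowest mutant library for Col6a2 and Col6a3. Log2 fold changes were 5.41, 6.01 and 7.34 in CARM1 knockout (adjusted p = 0.0039, 0.00235 and 0.00338) and 4.98, 5.03 and 6.45 in NFIB mutants (adjusted p = 0.00382, 0.0028 and 0.00363).

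All 3 genes gained open chromatin at their starts. The Col6a1 peak rose from 2.30, 2.41 and 3.17 CPM to 12.5, 14.8 and 10.1 CPM and to 11.5, 10.9 and 12.9 CPM, and the Col6a2 peak from 2.23, 2.87 and 3.59 CPM to 15.8, 19.4 and 11.1 CPM and to 10.8, 16.6 and 12.9 CPM. The Col6a3 peak (chr1:90842680-90844435) rose from 0.924, 0.989 and 1.01 CPM to 10.2, 8.24 and 7.52 CPM and to 9.62, 7.77 and 2.39 CPM. NFIB mutant replicate 3 was again the lowest mutant library for Col6a3, although a replicate number is not known to name the same tumor in both assays. In CARM1 knockout this was the largest rise among the start-site peaks of beaded chains (3.15 on the log2 scale), while in NFIB mutants (2.75) a Col6a5 peak rose more (3.06). The Col6a3 promoter (chr1:90843972-90844221, minus strand), shown for this opening, held none of the motifs.
Col6a3: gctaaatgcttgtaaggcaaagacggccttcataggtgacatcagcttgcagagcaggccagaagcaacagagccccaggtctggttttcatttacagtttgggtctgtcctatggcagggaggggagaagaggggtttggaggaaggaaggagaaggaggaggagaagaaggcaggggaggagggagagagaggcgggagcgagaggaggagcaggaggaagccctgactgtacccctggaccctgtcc
The alternative type VI chains Col6a5 and Col6a6 were not tested. Col6a5 reached 6.01 CPM in CARM1 knockout replicate 3 and Col6a6 at most 1.02 CPM, although a peak at the outermost Col6a5 start rose with CARM1 knockout (2.41 on the log2 scale, adjusted p = 0.00728).

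Among FACITs, Col12a1 was the most abundant. This gene of a fibril-bridging collagen of tendon and stroma had 23.1, 1.88 and 5.45 CPM in TKO, 3630, 1650 and 595 CPM in CARM1 knockout and 2402, 2407 and 156 CPM in NFIB mutants (log2 fold changes 7.6 and 7.35, adjusted p = 0.0092 and 0.00798). Replicate 3 was the lowest library of both mutants, in contrast to the type I chains, for which it was the highest. The Col12a1 start-site peak rose by 1.68 and 1.53 (adjusted p = 0.000516 and 0.000751).

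Col16a1, a FACIT found in papillary dermis and cartilage, had the smallest standard errors of the 33 collagen genes tested. It stood at 8.02, 6.30 and 7.31 CPM in TKO, 101, 120 and 116 CPM in CARM1 knockout and 284, 262 and 272 CPM in NFIB mutants. The 3 genotypes did not overlap, and the gene rose by 3.96 (standard error 0.16, adjusted p = 6.16e-05) and 5.24 (0.17, adjusted p = 1.79e-05) on the log2 scale. Between the mutants it was -1.28 (0.14), with an adjusted p = 0.115 that missed the threshold. With only genes of at least 10 counts in every library the same difference was called (adjusted p = 0.0693). The peak at the outermost start of the gene (chr4:130047104-130048495) held 13.2, 13.3 and 20.7 CPM, 17.4, 25.4 and 18.5 CPM and 17.8, 22.8 and 22.0 CPM, which overlapped and was not called (0.37 and 0.41), though it was called higher in both without TKO replicate 3 (0.63 and 0.66), with scaling by totals (0.92 and 0.95) and with the filter of 10 counts (0.53 and 0.57). A peak 29451 bp inside the gene, at the start of another transcript, fell from 19.8, 14.7 and 10.7 CPM in TKO to 0.439, 1.34 and 1.38 CPM in CARM1 knockout and 2.27, 1.80 and 0.903 CPM in NFIB mutants, and 2 smaller internal peaks fell too. Thus the RNA was higher while 3 of the 4 start-site peaks of the gene were lower in both mutants.

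Col14a1, another fibril-surface collagen, was called in CARM1 knockout alone, with 3.36, 0.525 and 1.15 CPM in TKO, 18.6, 4.78 and 20.2 CPM in CARM1 knockout and 1.46, 7.71 and 2.99 CPM in NFIB mutants (3.11 and 1.27, adjusted p = 0.0386 and 0.281). The difference between the mutants of 1.84 was not called (adjusted p = 0.592), and the start-site peak was not called in either, although with scaling by totals it was called higher in CARM1 knockout (0.97). Type IX chains, which coat cartilage fibrils, were on the opposite side. Col9a3 fell from 25.9, 13.6 and 2.17 CPM in TKO to 0.678, 0.350 and 0.787 CPM in CARM1 knockout and 0.243, 0.616 and 0 CPM in NFIB mutants (-4.5 and -5.56, adjusted p = 0.0298 and 0.0146). Its start-site peak fell by 2.09 and 2.04 on the log2 scale (adjusted p = 0.00762 and 0.00797).

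Col9a2 depended on single libraries. It had 42.8, 2.41 and 0.709 CPM in TKO, 0, 0.0583 and 13.1 CPM in CARM1 knockout and no count in any NFIB mutant library. Against 3 counts per library its fall in NFIB mutants was at least 82.2-fold (adjusted p = 0.0731), a bound that rested on TKO replicate 1 and was 8.37-fold without it. This call was lost without TKO replicate 1 (adjusted p = 0.158) or replicate 2 (0.103), without each NFIB mutant library (0.128 to 0.137), and under other settings given in the closing section. In CARM1 knockout it was not called (adjusted p = 0.589), and without CARM1 knockout replicate 3 it was called lower (-8.61, adjusted p = 0.0708). The Col9a2 peak was lower in both mutants, at 37.2, 10.9 and 6.42 CPM in TKO, 4.39, 4.11 and 7.59 CPM in CARM1 knockout and 4.03, 4.72 and 3.81 CPM in NFIB mutants, with an overlap in CARM1 knockout, where the call was lost without TKO replicate 1 (adjusted p = 0.19). Col22a1, a FACIT of tissue junctions, was called lower in NFIB mutants (-4.39, adjusted p = 0.0867), at 0.625, 3.59 and 5.18 CPM in TKO against 0.365, 0 and 0.0635 CPM, and this call was lost without any 1 of the TKO libraries (adjusted p = 0.101 to 0.165) or without NFIB mutant replicate 2 or 3 (0.196 and 0.207), with no filter (0.122) and with the replicate block (0.193). In CARM1 knockout Col22a1 was not called with all libraries and was called lower without replicate 3 of that group (-8.84, adjusted p = 0.0346). Col20a1 was not called, with no library above 4.86 CPM.

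Network-forming and multiplexin collagens included further rises. Col8a1, a short-chain collagen of vessel walls, went from 7.69, 1.09 and 0.665 CPM in TKO to 68.5, 15 and 175 CPM in CARM1 knockout and 7.84, 68.6 and 178 CPM in NFIB mutants (4.78 and 4.75, adjusted p = 0.0419 and 0.0365). NFIB mutant replicate 1 was only just above TKO replicate 1, and both calls were lost without TKO replicate 2 (adjusted p = 0.117 and 0.104). Its partner Col8a2 was not tested. Its RNA reached 29.0 CPM in replicate 2 of CARM1 knockout, and no other library exceeded 0.310 CPM.

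Col18a1, a basement membrane proteoglycan whose end piece is endostatin, had 5.43, 29.0 and 1.99 CPM in TKO, 125, 40.1 and 140 CPM in CARM1 knockout and 166, 122 and 38.4 CPM in NFIB mutants (3.06 and 3.16, adjusted p = 0.0524 and 0.0413). The call was lost in both mutants without TKO replicate 1 (adjusted p = 0.134 and 0.111), and in CARM1 knockout without its replicate 1 (0.114). Its 3 start-site peaks differed. The peak at the outermost start held 3.63, 7.08 and 9.08 CPM in TKO, 9.92, 7.09 and 5.03 CPM in CARM1 knockout and 9.71, 5.32 and 6.24 CPM in NFIB mutants and was not called (0.16 and 0.10). A peak 76879 bp further into the gene (chr10:77089020-77090319) rose from 1.21, 1.24 and 1.52 CPM to 7.26, 5.43 and 4.84 CPM and to 5.26, 9.91 and 6.42 CPM (2.14 and 2.44, adjusted p = 0.00114 and 0.00053), with no overlap. The related Col15a1 was not called. It had 2.5, 3.63 and 16 CPM in TKO, 5.29, 15 and 16.3 CPM in CARM1 knockout and 47.5, 0.678 and 0.889 CPM in NFIB mutants. Without NFIB mutant replicate 1 it was called lower in NFIB mutants (-3.21, adjusted p = 0.0509).

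Transmembrane and anchoring collagens moved in both directions. Col23a1 had 1.3, 0.219 and 0.975 CPM in TKO, 13.1, 6.59 and 2.81 CPM in CARM1 knockout and 183, 15.9 and 1.91 CPM in NFIB mutants, a 95.8-fold range among mutant libraries. It was called in NFIB mutants (6.32, adjusted p = 0.0206) and not in CARM1 knockout (3.17, adjusted p = 0.131), although every library of both mutants lay above TKO. In CARM1 knockout it was called by DESeq2 (adjusted p = 0.037), with only the genotypes compared (0.0434) and without NFIB mutant replicate 1 or 3 (0.0614 and 0.063). The difference between the mutants of -3.16 was not called (adjusted p = 0.564), and its peak was called in neither. Col17a1, a hemidesmosome chain of basal epithelium, was called in NFIB mutants (2.93, adjusted p = 0.0339) at no more than 2.13 CPM. Summed epithelial markers ranged from 2.54 to 995 CPM in those libraries.

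Col25a1, a neuronal transmembrane collagen, fell. It had 24.9, 6.69 and 18.7 CPM in TKO, 0.203, 0.408 and 0.169 CPM in CARM1 knockout and 0.243, 4.5 and 0 CPM in NFIB mutants. All mutant libraries lay below TKO, with NFIB mutant replicate 2 closest. The fall was called in CARM1 knockout (-5.97, standard error 1.75, adjusted p = 0.0322), though not without its replicate 1 (adjusted p = 0.102), and missed in NFIB mutants (-3.40, adjusted p = 0.103), where it was called without NFIB mutant replicate 2 (-7.01, adjusted p = 0.0135). With all libraries kept, the fall in NFIB mutants was called by DESeq2 (adjusted p = 0.0291), with scaling by totals (0.077) and with the replicate block (-5.08, adjusted p = 0.0947). The peak at its RefSeq start (chr3:130180129-130181754, 49440 bp inside the annotated gene) fell in both, from 18.0, 19.3 and 28.9 CPM to 3, 2.98 and 2.08 CPM and to 3.2, 2.89 and 0.942 CPM (-3.04 and -3.24, adjusted p = 0.00041 and 0.000268). Col7a1, the anchoring fibril chain of skin, had 3.56, 2.45 and 5.67 CPM in TKO, 2.03, 58.3 and 3.99 CPM in CARM1 knockout and 21.3, 7.77 and 10.9 CPM in NFIB mutants and was not called. Its difference of 2.46 in CARM1 knockout became -0.36 without CARM1 knockout replicate 2, and was called by DESeq2 (adjusted p = 0.0596) and without CARM1 knockout replicate 1 or 3 (0.0768 and 0.0816). In NFIB mutants Col7a1 was called higher with only the genotypes compared (1.79, adjusted p = 0.0447) and without CARM1 knockout replicate 2 (1.78, adjusted p = 0.0466). Its start-site peak rose in both (2.0 and 2.57, adjusted p = 0.00582 and 0.00159).

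**Figure D3:**
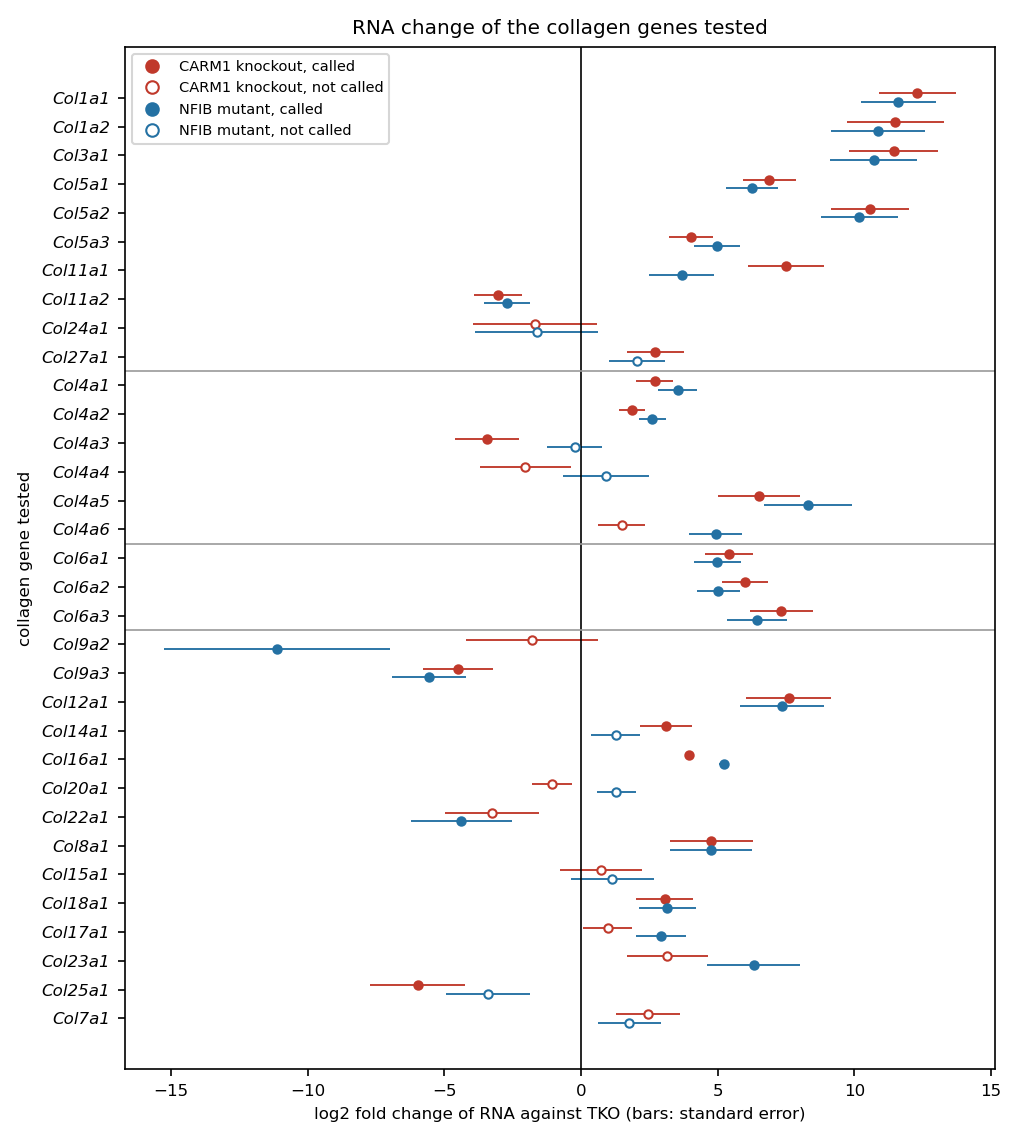
Points are the log2 fold changes of RNA against TKO for the 33 collagen genes tested, with standard errors as bars, filled where called and open where not, and lines divide fibrillar, basement membrane, beaded and other types. Col1a1 lies at 12.31 and 11.61 and the standard errors of Col16a1 (0.16 and 0.17) are the shortest.

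The remaining members stayed low. Not tested were Col2a1, Col6a5, Col6a6, Col9a1, Col19a1, Col8a2, Col10a1, Col13a1, Col26a1 and Col28a1. Col9a1 had 3.36, 0.875 and 0.133 CPM in TKO and no count in any mutant library. Col10a1, the hypertrophic cartilage chain, had at most 0.889 CPM and no start-site peak, and Col13a1 had at most 1 count. Col28a1 reached 5.51 CPM in CARM1 knockout replicate 3 and 3.15 CPM in TKO replicate 3, and Col26a1 at most 12 counts. Col19a1, a FACIT of muscle and neurons, had at most 0.528 CPM, yet its start-site peak (chr1:24586288-24587595) fell from 8.45, 11.2 and 10.8 CPM in TKO to 0.904, 0.826 and 0.339 CPM in CARM1 knockout and 0.568, 0.409 and 3 CPM in NFIB mutants (-3.87 and -2.92, adjusted p = 0.00153 and 0.00483). This was the largest fall among the collagen start-site peaks in CARM1 knockout tumors.

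The sequences before the starts with large falls, Col25a1 (chr3:130180595-130180844, plus strand) and Col19a1 (chr1:24587473-24587687, minus strand), and of the silent Col10a1 (chr10:34389731-34389980, plus strand) are shown for comparison with the opening starts above, marked in the same way.
Col25a1: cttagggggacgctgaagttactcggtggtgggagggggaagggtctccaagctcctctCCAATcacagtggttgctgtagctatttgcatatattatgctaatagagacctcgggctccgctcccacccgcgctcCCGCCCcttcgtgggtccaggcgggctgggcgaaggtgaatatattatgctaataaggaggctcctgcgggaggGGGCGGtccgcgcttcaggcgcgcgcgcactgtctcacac
Col19a1: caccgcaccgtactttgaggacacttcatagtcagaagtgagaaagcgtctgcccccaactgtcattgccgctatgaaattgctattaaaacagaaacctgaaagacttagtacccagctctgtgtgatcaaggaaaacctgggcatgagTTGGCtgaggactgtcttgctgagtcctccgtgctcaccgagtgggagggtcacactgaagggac
Col10a1: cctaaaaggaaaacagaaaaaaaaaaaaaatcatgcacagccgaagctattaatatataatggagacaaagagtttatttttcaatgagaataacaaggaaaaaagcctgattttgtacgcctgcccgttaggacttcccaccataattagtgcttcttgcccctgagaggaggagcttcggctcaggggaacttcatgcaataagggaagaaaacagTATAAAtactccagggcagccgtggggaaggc
Col10a1 alone among the sequences shown has TATAAA close to its start, 32 bases before it, and that of Col3a1 lies 117 bases before.

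Motifs were counted on both strands of the 250 bases before each start. The GC box GGGCGG was in 20 of the 34 collagen promoters in the table (58.8%) and in 32.7% of all 32851 promoters. CCAAT was in 12 of 34 (35.3%) against 33.8%, TTGGC, the core element of the NFI family to which NFIB belongs, in 13 of 34 (38.2%) against 41.5%, and TATAAA in 5 of 34 (14.7%) against 12.4%. The AP-1 motif TGANTCA was in the Col6a1 promoter only, against 6.75%. No collagen promoter held TTGGC followed after 5 bases by GCCAA, which 0.0365% of all promoters did. Among the 14 promoters of genes called higher in both mutants, 8 held CCAAT, 10 the GC box, 6 TTGGC and 1 each TATAAA and the AP-1 motif, and among the other 20 these numbers were 4, 10, 7, 4 and 0. These matches are descriptions of the letters in these windows.

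All 58 start-site peaks were tested in the same way among 111116 peaks, with a size limit of 0.5 for a call. Against TKO, 30 were higher and 13 lower in CARM1 knockout tumors, where 20.0% of the start-site peaks of all genes were higher and 35.0% lower. In NFIB mutants 28 were higher and 14 lower, where 20.4 and 39.4% of all were. With scaling by totals the split was 35 and 9 in CARM1 knockout, where 32.7 and 16.6% of all were called, and 34 and 9 in NFIB mutants, where 31.5 and 19.7% were. The median log2 fold change was 1.05 and 0.72, beside -0.32 and -0.38 over start-site peaks of all genes. Fibrillar genes held 22 of these peaks, of which 16 were higher and 1 lower in CARM1 knockout and 15 higher and 2 lower in NFIB mutants. All 5 beaded peaks were higher in CARM1 knockout and 4 in NFIB mutants, whereas of 28 peaks of other types 8 were higher and 10 lower, in CARM1 knockout and 8 and 11 in NFIB mutants. No peak was found at Col5a1, Col4a6, Col6a6, Col9a1, Col20a1, Col10a1, Col17a1 and Col28a1.

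RNA and peaks were set side by side for the 29 genes with a test and a peak, using the peak with the most reads. In CARM1 knockout 11 genes were higher in both measures and 4 lower in both, and in NFIB mutants 10 and 4. Across these genes Pearson's r between the changes was 0.89 in CARM1 knockout and 0.81 in NFIB mutants, a description over genes that share libraries and, for the pairs Col4a1 and Col4a2 and Col4a3 and Col4a4, the peak. Neither these counts nor r were computed over all genes, so they cannot be read as particular to collagens. Col5a3, Col14a1, Col16a1, Col8a1 and Col18a1 were higher in RNA in CARM1 knockout while their strongest peak was not called. With scaling by totals the strongest peaks of Col5a3, Col14a1, Col16a1 and Col8a1 were called higher there.

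**Figure D4:**
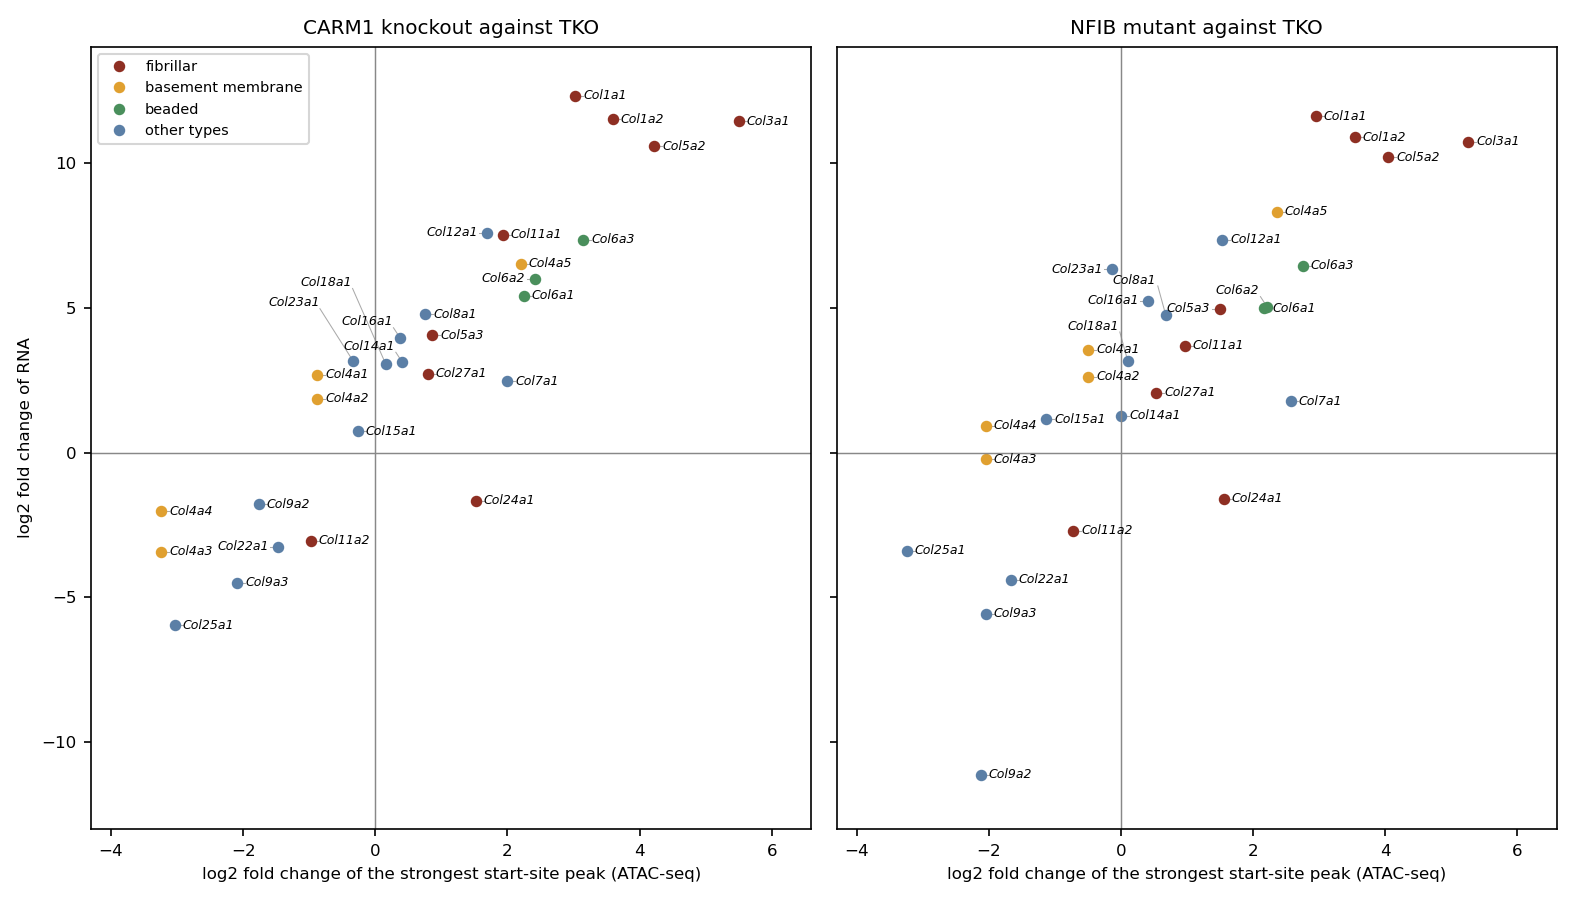
Each point is 1 of 29 collagen genes, with the log2 fold change of its strongest start-site peak on the horizontal and of its RNA on the vertical axis, for CARM1 knockout (left) and NFIB mutant (right) against TKO. Col3a1 lies furthest right at 5.50 and 5.26, and Col4a1 and Col4a2 lie left of 0 with RNA above 0.

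The mutants were compared with each other directly. No collagen gene was called between them, where 0% of all genes were, and 5 of the 33 had an unadjusted p under 0.05. These were Col16a1, Col11a1, Col4a6, Col20a1 and Col4a3, with log2 differences of CARM1 knockout minus NFIB mutant of -1.28, 3.83, -3.45, -2.34 and -3.2. DESeq2 called 6 collagen genes in this comparison, Col2a1, Col4a6, Col9a2, Col11a1, Col16a1 and Col20a1, where it called 1.97% of all 27468 genes it was given. None of the 58 start-site peaks was called, where 0% of those of all genes were, and 6 had an unadjusted p under 0.05. DESeq2 called none of these peaks, where it called 0.720% of the start-site peaks of all genes, with 8 at an unadjusted p under 0.05. Libraries of the same mutant also differed, with Col23a1 from 1.91 to 183 CPM in NFIB mutants and Col11a1 from 20.7 to 680 CPM in CARM1 knockout. A missed call therefore does not show that the mutants were alike.

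Chains that assemble together were compared per length of exon. The log2 ratio of Col1a1 to Col1a2 was 1.54 ± 0.32 (SD, n = 3) in CARM1 knockout and 1.26 ± 0.44 (SD, n = 3) in NFIB mutants, a ratio of 1.73 to 3.58 in single libraries. Col4a1 to Col4a2 was near parity in the mutants, at -0.02 ± 0.29 (SD, n = 3) and 0.18 ± 0.16 (SD, n = 3), with a TKO mean of -0.91 ± 0.58 (SD, n = 3). TKO replicate 2 (-0.32) lay within the range of the mutant libraries (-0.33 to 0.30), and the difference was not tested. Col6a1 exceeded Col6a2 in every library, with a log2 ratio of 2.07 ± 0.26 in TKO, of 1.61 ± 0.08 in CARM1 knockout, and of 2.20 ± 0.20 for the NFIB change (SD, n = 3 each). The ratio of Col6a3 to Col6a1 varied most, from -4.07 in NFIB mutant replicate 3 to -0.33 in CARM1 knockout replicate 1. Exon lengths set the level of these ratios, and with the longest transcript the Col1a1 to Col1a2 means became 0.47 and 0.19.

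Genes that modify, export, cleave, cross-link and bind collagen were read from the same fits. Of 43 such genes 42 were tested, and 32 were higher and none lower in CARM1 knockout, where 20.5% of all genes were higher and 18.3% lower. In NFIB mutants 33 were higher and 1 lower, the collagen receptor chain Itga10, where 22.3 and 23.5% of all genes were. Called higher in both were 31, where 17.9% of all genes were. By step, 11 of 13 hydroxylases and glycosyltransferases were higher in CARM1 knockout and 10 in NFIB mutants, 8 of 10 chaperones and export factors in each, 5 of 8 genes of propeptide cleavage in each, 4 and 5 of 5 cross-linking enzymes, and 4 and 5 of 7 receptors. The export receptors Mia3 and Mia2 were called in neither. The gene that rose most was Serpinh1, the collagen chaperone HSP47, from 0.192, 3.59 and 0.0443 CPM in TKO to 1747, 914 and 1566 CPM in CARM1 knockout and 710, 860 and 1347 CPM in NFIB mutants (log2 fold changes 10.09 and 9.56, adjusted p = 0.00285 and 0.00243).

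Other steps showed the same direction. Loxl1, a cross-linking oxidase, went from 0, 1.88 and 0.177 CPM to 293, 171 and 152 CPM and to 240, 302 and 351 CPM (8.20 and 8.73, adjusted p = 0.0029 and 0.0019). Mrc2, an uptake receptor for collagen, went from 2.59, 4.59 and 1.82 CPM to 298, 379 and 280 CPM and to 460, 325 and 746 CPM (6.73 and 7.41, adjusted p = 0.000384 and 0.000261). Adamts3, a procollagen protease, had at most 1 count in any TKO library, 6.03, 19.6 and 0.618 CPM in CARM1 knockout and 22.2, 13.7 and 0.826 CPM in NFIB mutants, with replicate 3 far lowest in both. Against 3 counts per library its mean rise was at least 64.3-fold with CARM1 knockout (24.4-fold without CARM1 knockout replicate 2), and for NFIB mutants the bound was 90-fold (53.5-fold without NFIB mutant replicate 1). In none of these 4 genes did a mutant library overlap TKO.

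Counting could affect single members. Exon bases shared with another annotated gene were found for 12 members. The largest share was 6.07% of the exons of Col9a3, shared with Tcfl5 on the opposite strand, and the sources used here do not state whether counting used strand. The reads of a gene and an overlapping partner on the other strand could then not be told apart.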

How the data were processed

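RNA-seq and ATAC-seq were each done on 9 libraries, 3 per genotype. Column letters C, KO and N were read as TKO, CARM1 knockout and NFIB mutant. The authors deposited raw counts per Ensembl gene (per the methods Trim Galore, HISAT2 on mm10 and htseq-count) and raw counts per peak (Bowtie2, Picard and MACS2, with regions of copy number change removed). The file header names featureCounts for peaks, whereas the methods name bedtools multicov. In R 4.3.3, edgeR 4.0.16 (TMM, filterByExpr, robust quasi-likelihood fit, Benjamini-Hochberg) was fitted to all genes or peaks with genotype as the only term. The fit was also run on simulated data with few changed features, which cannot show how the scaling performs where many features differ. DESeq2 1.42.0 was an alternative, beside RLE or total scaling, other filters, fits of the compared genotypes alone, a replicate block and leaving out each library. Summary entries of the table (5) were left out. Members with a mean of at least 10 CPM in a genotype were given in every library, and of the biosynthesis genes the 4 largest rises called in both mutants. Members and lists were chosen with earlier results of these data known. Same-numbered samples of different genotypes came from independent animals and were not paired. The paper states that both assays were run on the same tumor biopsies and that controls were littermates. The labels do not tell which libraries share a tumor or a litter, so RNA and peaks may come from the same animals. In the main fit, p-values rest on the spread between animals within genotypes, estimated over all 9 libraries and moderated across genes or peaks. Counting floors cover counting error only. Figures used Python 3.11.15 and matplotlib 3.10.9.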

Additional observations from a re-analysis of the deposited data

How the results depend on the processing

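Counts depended on the filter and the tool. With at least 10 counts in every library 15 collagen genes were tested, 0 were lower in either mutant and 12 were higher in NFIB mutants, since genes low in a genotype were no longer tested. Of all genes 18.9 and 20.8% were lower and, in NFIB mutants, 20.5% higher with this filter. DESeq2, which was given all 43, called 7 lower in NFIB mutants (15.7% of all genes it was given). Between the mutants DESeq2 called 6 genes (1.97% of all) and the filter of 10 counts left 1 (0.0457% of all). With peaks at the gene start alone (30 peaks), 13 were higher and 8 lower in CARM1 knockout, and 12 and 8 in NFIB mutants (16.8, 35.7, 17.1 and 40.9% of such peaks of all genes). In NFIB mutants 9 peaks were lower with scaling by totals and also 9 with the filter of 10 counts (19.7 and 30.5% of start-site peaks of all genes). Totals moved the median of all genes from -0.03 to -0.30 and from -0.05 to -0.37, and that of all peaks from 0.22 to 0.79. Leaving out 1 library at a time gave 18 to 21 genes higher and 2 to 6 lower in each mutant, of 35 to 38 tested. Of all 16014 to 16347 genes in these fits, 4669 to 6416 were called in either direction in CARM1 knockout and 6153 to 7390 in NFIB mutants.

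Same-numbered samples deviated together only weakly (correlations of -0.29 to 0.117). With the replicate block 22 and 24 of 33 genes were called in either direction in CARM1 knockout and NFIB mutants, where 5485 and 6508 of all 15514 genes were. Of the 58 start-site peaks 42 and 39 were called, where 76648 and 79377 of all 111116 peaks were. Of 1016 refitted gene values 951 kept direction and call and 11 changed sign, and of 1208 peak values 1112 and 21. The peak values, and those of 7 genes, were followed by a choice made after seeing the data. With the replicate block the NFIB mutant value of Col24a1 became 0.77, that of Col4a3 0.36 and that of the Col14a1 peak -0.0089. Leaving out 1 library gave CARM1 knockout ranges of -3.01 to 5.16 for Col24a1, -8.61 to 1.5 for Col9a2 and -0.36 to 3.01 for Col7a1. NFIB mutant ranges were -2.19 to 5.22 for Col24a1, -1.05 to 1.85 for Col4a3, -1.30 to 2.34 for Col4a4 and -3.21 to 2.43 for Col15a1. For peaks at gene starts they were -0.19 to 0.18 for Col14a1, -0.19 to 0.41 for Col18a1, -0.41 to 0.030 for Col23a1 and -0.073 to 0.88 for Col6a5, and -0.14 to 0.46 for Col18a1 in CARM1 knockout.

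Scaling turned small peak values. With totals the Col4a1 and Col4a2 peak was 0.092 in NFIB mutants, and the Col23a1 peak 0.22 in CARM1 knockout and 0.40 in NFIB mutants, where the filter of 10 counts gave 0.037. RLE scaling and DESeq2 gave -0.14 and -0.14 for the Col14a1 peak, and for the Col18a1 start peak -0.012 and -0.0061 in CARM1 knockout and -0.049 and -0.043 in NFIB mutants. With the longest transcript as length, the mean log2 ratio of Col1a1 to Col1a2 was -0.34, 0.47 and 0.19 in TKO, CARM1 knockout and NFIB mutants, that of Col6a1 to Col6a2 was 1.40, 0.95 and 1.54, and that of Col5a1 to Col5a2 was -1.06 in NFIB mutants. Apart from the filter and the lengths, the cause was not tested. Depth limits the low members, where 3 counts are 0.143 to 0.189 CPM.

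The Col9a2 call in NFIB mutants was lost with no filter (adjusted p = 0.135) and with the replicate block (-12.73, adjusted p = 0.113).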
